A study of Mus musculus with 4 samples.

Results

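The Krüppel-like factors (KLFs) Klf2, Klf3, Klf6, Klf7, Klf10 and Klf13 and the sphingosine-1-phosphate (S1P) receptors S1pr1, S1pr4 and S1pr5 were measured in cultured mouse CD8 T cells with and without added BATF. The 9 genes were taken by symbol from a deposited table of 24312 genes, and all 9 were listed there. The cells were P14 CD8 T cells on a C57BL/6 background, whose transgenic T cell receptor recognises a viral peptide named gp33. All cells were activated with 100 ng/ml gp33, transduced after 1 day with a retrovirus, and activated for 1 more day. A 2-day expansion in IL-2 (10 ng/ml) followed, then a sort for CD8 and GFP, and 2 days at a lower IL-2 dose of 1 ng/ml. The control group carried the empty vector MSCV-IRES-GFP (MIG) and the other group the same vector with BATF, an AP-1 family transcription factor, expressed from the retrovirus; the GFP sort keeps transduced cells of both groups. Each group had 2 libraries, called biological replicates by the submitters. Nothing states that they came from separate mice, so the spread behind each p-value may be technical.

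KLFs are zinc finger transcription factors that bind GC-rich and CACCC-containing DNA. KLF2 is known for keeping T cells quiescent and recirculating: in naive and memory T cells it maintains transcription of S1pr1, and it is itself maintained by the factor FOXO1 and lost upon receptor stimulation. The chemokine receptor CCR7 lets a T cell enter a lymph node from blood, and S1PR1 lets it leave towards S1P in lymph and blood.

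The upstream sequences of 3 KLF genes are shown here because Klf2 and Klf3 had nearly the same profile over the 4 libraries and Klf6 the opposite one, as described further on. Each is the 250 bases before the RefSeq start site, 5′ to 3′ on the gene's strand, from the RefSeq promoter table of GRCm38.p6. That build is not the mm9 named in the submitters' notes, so the coordinates apply to GRCm38.p6 only. Capitals mark the MEF2 consensus site in Klf2 (chr8:72318812-72319061, + strand), each CACCC box in Klf3 (chr5:64803271-64803520, + strand) and each CCAAT box in Klf6 (chr13:5861239-5861488, + strand), with GGGTG and ATTGG as the reverse-strand forms.
Klf2: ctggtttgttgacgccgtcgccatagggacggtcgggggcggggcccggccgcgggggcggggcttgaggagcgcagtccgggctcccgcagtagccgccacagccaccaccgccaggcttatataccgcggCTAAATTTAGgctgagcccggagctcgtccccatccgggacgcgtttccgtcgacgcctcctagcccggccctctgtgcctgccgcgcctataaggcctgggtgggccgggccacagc
Klf3: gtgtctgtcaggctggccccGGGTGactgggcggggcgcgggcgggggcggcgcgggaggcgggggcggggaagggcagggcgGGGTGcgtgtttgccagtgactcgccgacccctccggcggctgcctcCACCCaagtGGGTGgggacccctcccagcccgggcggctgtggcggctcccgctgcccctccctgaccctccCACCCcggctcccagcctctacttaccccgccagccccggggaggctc
Klf6: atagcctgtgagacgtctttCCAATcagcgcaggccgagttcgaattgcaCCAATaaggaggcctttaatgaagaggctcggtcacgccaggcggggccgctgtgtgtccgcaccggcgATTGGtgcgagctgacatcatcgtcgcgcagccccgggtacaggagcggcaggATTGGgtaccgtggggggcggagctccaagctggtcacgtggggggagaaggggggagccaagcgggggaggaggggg

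The table held promoter windows for 7 of the 9 members (Klf2, Klf3, Klf6, Klf7, Klf13, S1pr4 and S1pr5). Searched on both strands over the same 250 bases, CACCC occurred in 6 of these 7, with 5 matches in Klf3 and 1 in Klf2, and in 52.0% of all 32851 windows of the table. The MEF2 consensus, the site through which the ERK5 kinase pathway is known to drive Klf2, occurred in Klf2 alone of the 7, starting 118 bases before its start site, and in 2.92% of all windows. CCAAT occurred in Klf6, with 4 matches, and in Klf13, with 2, and in 33.8% of all windows. The AP-1 letters TGANTCA, to which BATF with a JUN partner can bind, were in 0 of the 7 windows and in 6.75% of all windows. The FOXO letters GTAAACA were in 0 of the 7 and in 3.17% of all. The capitalised matches do not overlap one another, and each is a match of letters only. A different motif is capitalised in each gene, and the CACCC match in Klf2 is left in small letters. A link between these letters and the profiles over the libraries was not tested.

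Library totals ran from 19004726 to 24795707 fragments. In CPM, the fragment count relative to library size as scaled by edgeR's TMM factors, Batf was at 36.1 and 26.5 in MIG and 1342 and 934 in BATF, which matches the labels; vector and cellular Batf fragments were not separated. Of 13008 genes tested with edgeR's quasi-likelihood test (Benjamini-Hochberg adjusted p under 0.05), 142 passed, or 1.09%. All 10 CD8 T cell markers on a fixed list were expressed, with summed levels of 5346 and 5442 CPM in MIG and 4476 and 4949 CPM in BATF; 0 of the 10 passed, all 10 had a negative log2 fold change, and their median was −0.16. Cd4 had 11 to 15 fragments per library. Endothelial cells, which carry abundant Klf2, Klf4 and S1pr1, were represented by Pecam1, which T cells express too, while Cdh5, Kdr, Tek, Tie1 and Emcn had 0 to 16 fragments per library. The summed endothelial list ran from 62.2 to 88.2 CPM in MIG and from 55.6 to 61.9 in BATF. In bulk RNA, fewer cells with a transcript and less of it per cell cannot be told apart, and the part of the CD8 and endothelial lists in the results below was not tested.

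With all 4 libraries and no covariate, none of the 9 genes passed between BATF-transduced and vector cells. All 9 passed the filter on low counts. EdgeR called 0 of them (background 1.09%), and 0 had an unadjusted p under 0.05 (background 4.09% lower and 6.69% higher). DESeq2 (background 2.80%), limma-voom (0.946%) and edgeR with no filter on low counts (1.53%) also called 0. So did limma on the log2 of the deposited FPKM plus 1 (0.338%) or plus 0.1 (0.623%). DESeq2 gave S1pr5 no adjusted p, so S1pr5 could not be called there. A fit on all 4 libraries with the replicate number as a block did call members, 4 of them, all lower in BATF (Klf2, Klf3, Klf13 and S1pr1), beside 4.52% of all genes tested; no label says that the number pairs the libraries. FPKM is the fragment count per transcript length and library size. With 1 library left out, edgeR called 3 members where that library was MIG replicate 2 (background 4.27%) and 1 where it was BATF replicate 1 (2.00%), all of them lower in BATF. It called 0 where it was MIG replicate 1 (1.79%) or BATF replicate 2 (1.79%). Such fits take the spread of the single remaining library from the other group. The members' log2 fold changes (BATF over MIG) had a median of −0.22, beside −0.01 over all genes tested; 7 were negative and 2 positive, and 51.5% of all genes tested were negative. Groups did not overlap in 1 of the 9, Klf7, beside 38.7% of all genes. In 8 of the 9, all but Klf7, the 2 libraries of 1 of the groups differed by a larger fold than the group means did. That comparison was made for the 9 members only, so it does not set them apart from other genes.

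**Figure D1:**
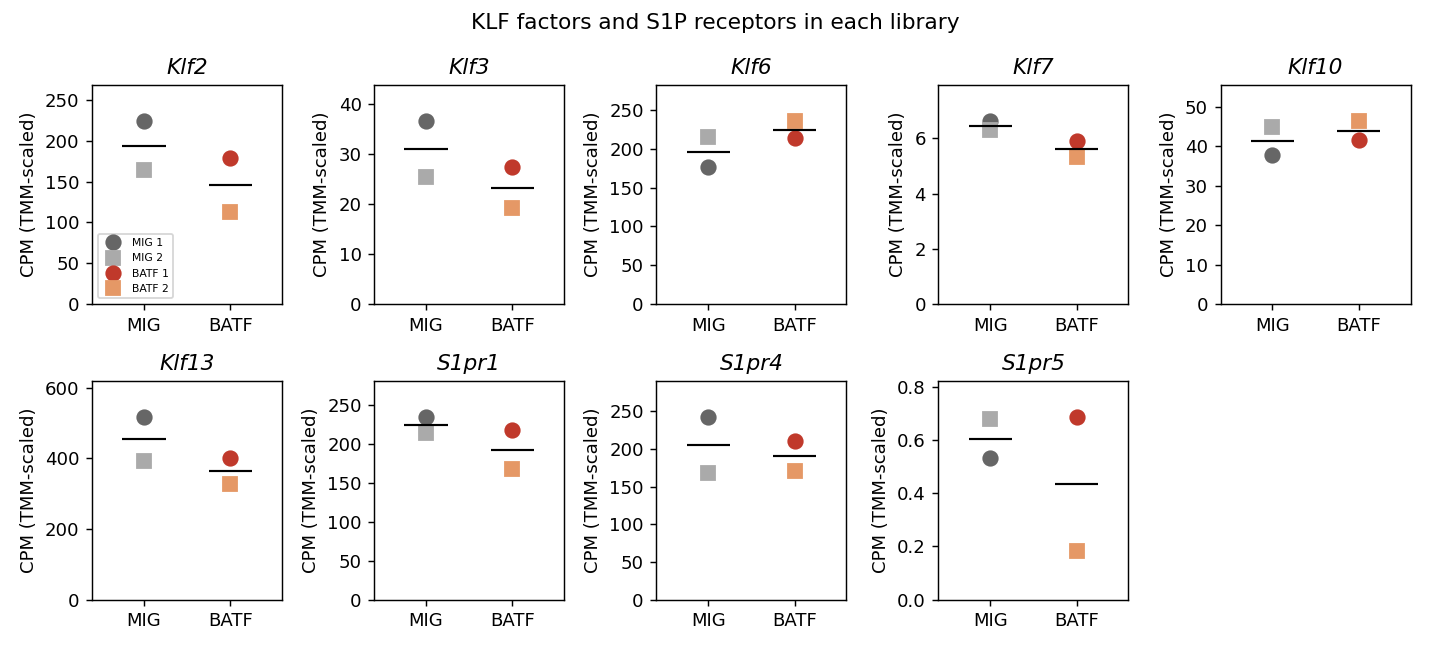
TMM-scaled CPM (y axes from 0, scaled per gene) of the 9 members in the 4 libraries; circles are replicate 1, squares replicate 2, and bars the mean of each group. The groups are separate in Klf7 and overlap in the other 8 genes.

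Klf2, the quiescence factor, had the highest mean FPKM of the members in each group, though in BATF replicate 2 it stood below S1pr4 (68.9 against 76.6 FPKM). It stood at 223.6 and 164.6 CPM in MIG and at 178.7 and 112.6 CPM in BATF. MIG replicate 1 was high and BATF replicate 2 low, while MIG replicate 2 lay below BATF replicate 1, so the groups overlapped. The 2 MIG libraries differed 1.36-fold and the 2 BATF libraries 1.59-fold, and the group means differed 1.33-fold (log2 fold change −0.42 ± 0.23 SE, 95% interval −0.96 to 0.13, edgeR adjusted p = 0.627). The interval covers no change and, at its lower end, nearly a halving. The size of the difference depended on single libraries. The log2 fold change of Klf2 was −0.63 with MIG replicate 2 left out and −0.79 with BATF replicate 1 left out. EdgeR called Klf2 in both of these fits, each of which left a single library in a group. Its log2 fold change was −0.18 with MIG replicate 1 left out and −0.12 with BATF replicate 2 left out, and it was not called there.

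Klf3, a repressor that recruits CtBP and often opposes activating KLFs, stood at 36.5 and 25.5 CPM in MIG and at 27.3 and 19.2 CPM in BATF. The order of the libraries was that of Klf2 with MIG replicate 2 and BATF replicate 1 close together, and the groups overlapped. Its log2 fold change was −0.42 ± 0.23 SE (95% interval −0.96 to 0.12, edgeR adjusted p = 0.613). Among the fits with 1 library left out, Klf3 passed only without MIG replicate 2 (log2 fold change −0.66). Without MIG replicate 1 its log2 fold change was −0.13. The ratio of Klf3 to Klf2 in FPKM stayed between 0.117 and 0.130 in the 4 libraries.

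Klf13, known in T cells as an activator of the chemokine gene Ccl5, had the most fragments of the 9, 7119 to 12654 per library. It stood at 517 and 391 CPM in MIG and at 400.3 and 327 CPM in BATF. MIG replicate 1 stood above the other 3 libraries, and BATF replicate 1 lay just above MIG replicate 2. The groups differed by a log2 fold change of −0.32 ± 0.15 SE (95% interval −0.69 to 0.05, edgeR adjusted p = 0.557). It passed without MIG replicate 2 (−0.51, edgeR adjusted p = 0.00869) and shrank to −0.10 (0.789) without MIG replicate 1. Ccl5 itself lay in the other direction, at 95.3 and 64.6 CPM in MIG and at 168 and 122 CPM in BATF, with no overlap between the groups and an edgeR adjusted p of 0.158 (log2 fold change 0.86). It passed without MIG replicate 1 (1.17, edgeR adjusted p = 0.0182), MIG replicate 2 (0.60, 0.0223) or BATF replicate 2 (1.07, 0.00639), in DESeq2 (0.00135) and with no filter on low counts (0.0127).

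Klf6 and Klf10 were the 2 members with a positive log2 fold change. Klf6, an early-response KLF induced in many cell types by activation, stood at 176 and 215 CPM in MIG and at 214 and 235 CPM in BATF. MIG replicate 1 was low, BATF replicate 2 was high, and the other 2 libraries were nearly equal. Its log2 fold change was 0.20 ± 0.11 SE (95% interval −0.07 to 0.47, edgeR adjusted p = 0.647). Leaving out MIG replicate 1 gave 0.069 (0.822), and leaving out MIG replicate 2 gave 0.35 (0.0523). Klf10, a TGF-beta-induced repressor, stood at 37.8 and 44.9 CPM in MIG and at 41.6 and 46.4 CPM in BATF, with overlapping groups. Its log2 fold change was 0.09 ± 0.12 SE (95% interval −0.20 to 0.38, edgeR adjusted p = 0.919), which leaves a doubling or halving outside the interval. Without MIG replicate 1 it was −0.025.

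Klf7, a KLF known for its role in neurons, was the least abundant of the 6 factors, with 112 to 162 fragments per library. It stood at 6.62 and 6.31 CPM in MIG and at 5.91 and 5.33 CPM in BATF, so that both BATF libraries lay below both MIG libraries. The 95% interval of the difference covered 0 (log2 fold change −0.20 ± 0.17 SE, 95% interval −0.62 to 0.21, edgeR adjusted p = 0.831). Klf3, Klf7, Klf13 and S1pr5 each overlap a gene on the opposite strand in the GENCODE M21 annotation. Klf3 and Klf7 each overlap a gene on their own strand as well, which counting by strand would not by itself separate. Whether the counting used strand is not given in the sources here, so fragments of the opposite-strand partners cannot be told apart from those of the members.

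**Figure D2:**
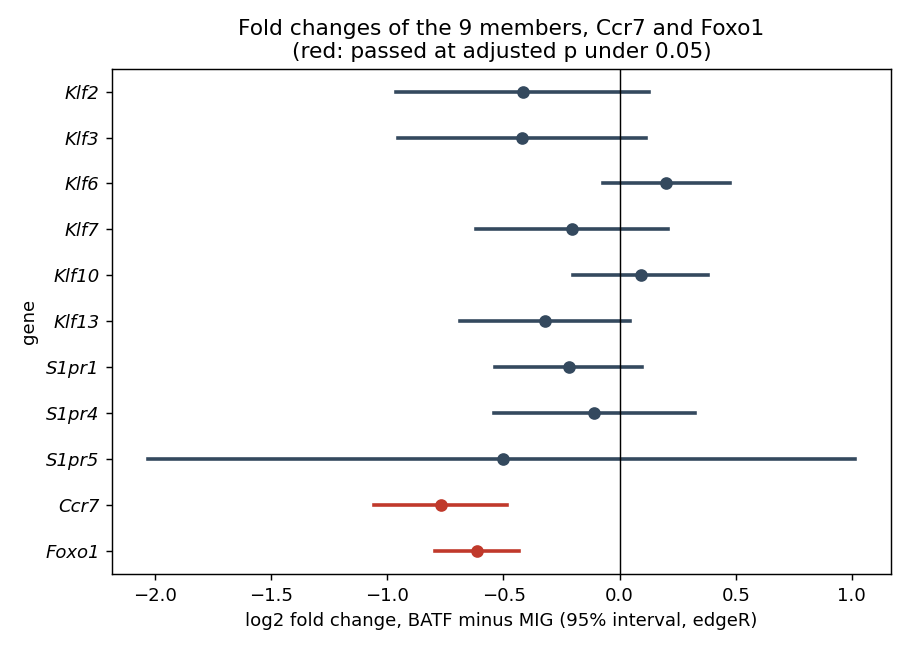
Log2 fold changes of BATF over MIG from edgeR (x axis) with 95% intervals for the 9 members, Ccr7 and Foxo1 (y axis). The intervals of all 9 members include 0, and Ccr7 and Foxo1, in red, passed at an adjusted p under 0.05.

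S1pr1, the receptor for exit from lymph nodes, stood at 234 and 214 CPM in MIG and at 218 and 167 CPM in BATF. BATF replicate 2 was low, and BATF replicate 1 lay between the MIG libraries. Its log2 fold change was −0.22 ± 0.13 SE (95% interval −0.54 to 0.10, edgeR adjusted p = 0.676), which leaves a halving outside the interval. Without BATF replicate 2 it was −0.04 and without BATF replicate 1 it was −0.42, and it passed in none of the fits with 1 library left out. Relative to Klf2 in the same library, S1pr1 had FPKM ratios of 0.597 and 0.741 in MIG and 0.696 and 0.847 in BATF, which overlapped; the ratio was chosen after the values were seen.

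S1pr4, a receptor found mainly on lymphoid and other blood cells, stood at 242 and 168 CPM in MIG and at 210.1 and 170.1 CPM in BATF. Replicate 1 was the higher library in each group, and both BATF libraries lay between the MIG libraries. Its log2 fold change was −0.11 ± 0.18 SE (95% interval −0.54 to 0.32, edgeR adjusted p = 0.937), and leaving out MIG replicate 1 made it 0.18, leaving out BATF replicate 2 0.03.

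S1pr5, the receptor through which NK cells and terminal effector CD8 T cells are known to recirculate, was close to absent. The MIG libraries held 13 and 14 fragments of it, the BATF libraries 13 and 4. The exact 95% Poisson interval, which covers counting error only, ran from 6.92 to 22.2 fragments for a count of 13, from 7.65 to 23.5 for a count of 14 and from 1.09 to 10.2 for a count of 4, so these intervals overlap. The log2 fold change of −0.50 had a 95% interval from −2.03 to 1.01 (edgeR adjusted p = 0.912), and it turned to 0.19 without BATF replicate 2. A difference of the size seen in other members was not detectable at this depth. Tbx21 and Zeb2, which encode factors known to promote S1pr5, stood at 111 and 88.8 CPM and at 3.27 and 3.88 CPM in MIG, and at 128.5 and 104.4 CPM and at 4.11 and 5.10 CPM in BATF. Neither passed (log2 fold changes 0.22 and 0.37, edgeR adjusted p = 0.716 and 0.675).

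Per transcript length, in the deposited FPKM, the order of the members in MIG was Klf2 (118.6 ± 28.5, SD, n = 2), S1pr4 (92.2 ± 26.0), S1pr1 (77.9 ± 7.05), Klf13 (72.2 ± 15.997), Klf6 (47.7 ± 5.46), Klf3 (14.5 ± 4.02), Klf10 (14.2 ± 1.39), Klf7 (5.62 ± 0.339) and S1pr5 (0.259 ± 0.0381). The ranges of neighbours overlapped from Klf2 through Klf13 and between Klf3 and Klf10. They did not overlap between Klf13 and Klf6, between Klf6 and Klf3 or Klf10, or on either side of Klf7. In BATF the FPKM means were 88.2 ± 27.3 for Klf2, 84.9 ± 11.7 for S1pr4, 66.6 ± 11.7 for S1pr1, 57.5 ± 7.52 for Klf13 and 54.8 ± 4.24 for Klf6, and the ranges of Klf6 and Klf13 overlapped there. Klf10 (15.1 ± 1.37) stood above Klf3 (10.8 ± 2.55) in both BATF libraries, whereas in MIG their ranges overlapped. Klf2 made up 42.2% and 36.4% of the summed FPKM of 17 KLF genes in MIG and 38.5% and 29.3% in BATF. The 6 KLF members together made up 88.6% to 92.1%. S1pr1 and S1pr4 made up 96.2% to 97.9% of the summed FPKM of the 5 S1P receptors in every library, with S1pr4 the larger of the pair in each.

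**Figure D3:**
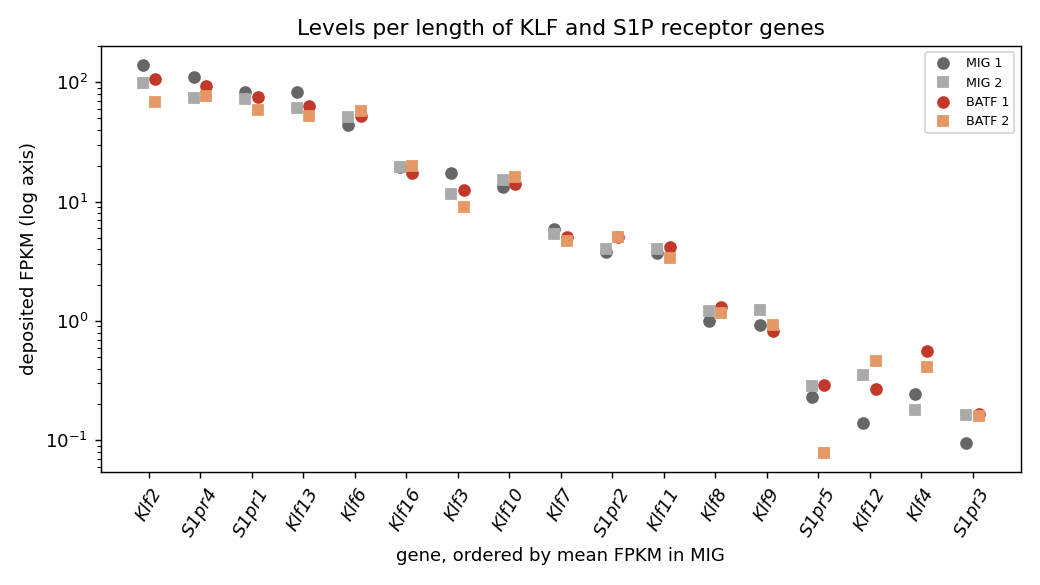
Deposited FPKM on a log axis (y) of the 9 members and 8 related genes (x), ordered by the MIG mean; grey points are MIG and red or orange points BATF, with circles for replicate 1 and squares for replicate 2. Klf2, S1pr4, S1pr1, Klf13 and Klf6 stand above 40 FPKM in every MIG library, and S1pr5 stands below 0.3 in all 4.

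Of the members, 7 showed 1 of 2 kinds of profile over the 4 libraries, a pattern noted after the values were seen. In 5 of the 9 (Klf2, Klf3, Klf7, Klf13 and S1pr1) MIG replicate 1 was the highest library and BATF replicate 2 the lowest, an order found in 10.6% of all genes tested. In Klf6 and Klf10 this was turned around, with MIG replicate 1 lowest and BATF replicate 2 highest, an order found in 9.68% of all genes. MIG replicate 1 was the deepest library, with 24795707 fragments, and BATF replicate 2, with 21835962, the second deepest; the part of depth in these orders was not tested. The ratio of Klf6 to Klf2 in FPKM was 0.316 and 0.525 in MIG and 0.482 and 0.839 in BATF, so that the ratio too overlapped between the groups.

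Likeness of profiles was measured as the Euclidean distance between log2 CPM values centred on each gene's mean over the 4 libraries, among the 6938 genes whose mean was 20 CPM or more. The 5 genes nearest to Klf2 were Phf11b (0.0808), Klf3 (0.125), Ggt1 (0.140), Nxpe3 (0.161) and Tmem71 (0.162). Klf3 thus ranked second of all these genes. The 5 nearest to S1pr1 were Fubp3 (0.0678), Lrrc8a (0.0817), Znrf2 (0.103), Pycard (0.111) and Fam69a (0.111), with no member among them. S1pr1 lay at 0.362 from Klf2 and at 0.219 from Klf13. Klf6 and Klf10 lay at 0.119 from each other and at 1.00 and 0.924 from Klf2. These distances describe 4 libraries, which share 2 groups, and carry no test.

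**Figure D4:**
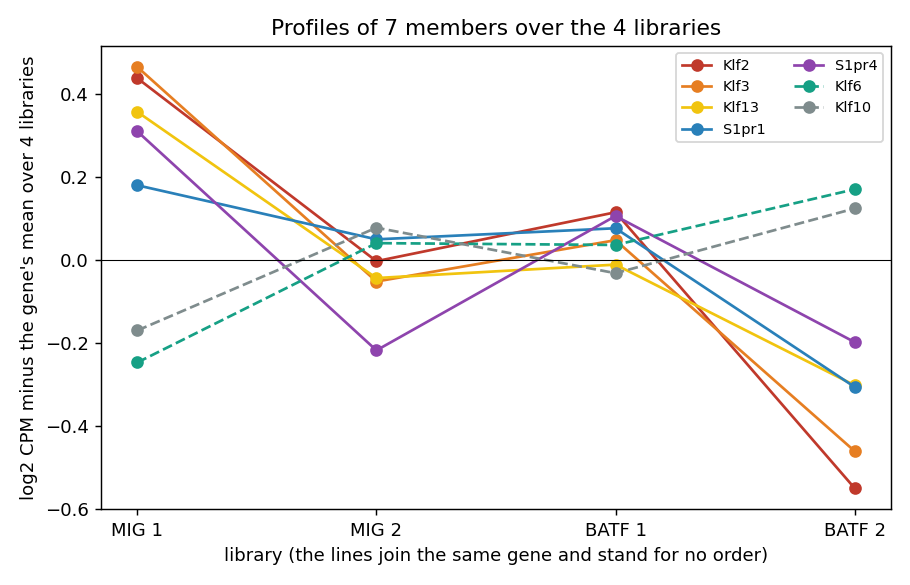
Log2 CPM minus each gene's mean over the 4 libraries (y axis) for 7 members in each library (x axis). Klf2 runs from 0.44 in MIG replicate 1 to −0.55 in BATF replicate 2, and Klf6, dashed, from −0.25 to 0.17.

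Of 20 lymph node homing and retention genes, all tested, 1 fell and 0 rose (background 0.208% lower and 0.884% higher), with a median log2 fold change of 0.00. At an unadjusted edgeR p under 0.05 there were 1 higher and 4 lower (background 6.69% and 4.09%). The gene that fell was Ccr7, from 182 and 155 CPM in MIG to 107.6 and 90.5 CPM in BATF, with an edgeR adjusted p of 0.0426 and a log2 fold change of −0.77 ± 0.12 SE. Ccr7 no longer passed without BATF replicate 2 (−0.65, 0.0671) or in limma on FPKM (adjusted p = 0.0679 with 0.1 added and 0.102 with 1 added). Cd69, whose product binds S1PR1 and removes it from the cell surface, stood at 26.4 and 54.5 CPM in MIG and at 16.1 and 24.4 CPM in BATF. The groups did not overlap, but the MIG libraries differed 2.06-fold (log2 fold change −0.99, edgeR adjusted p = 0.329). Leaving out MIG replicate 1 gave −1.42 for Cd69 and leaving out BATF replicate 2 gave −1.32, and Cd69 passed in both of these fits. Without MIG replicate 2 (−0.39) or BATF replicate 1 (−0.73) Cd69 did not pass. Itgb7, an integrin chain for entry into gut tissue that KLF2 is known to activate, stood at 1244 and 1055 CPM in MIG and at 1378 and 1124 CPM in BATF. The log2 fold change of Itgb7 was 0.12 (edgeR adjusted p = 0.882), and the sign turned without BATF replicate 1 (−0.032).

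Among upstream regulators and cofactors of KLFs and S1P receptors, 2 of 34 tested genes fell and 0 rose (background 0.208% lower and 0.884% higher). Their median log2 fold change was −0.01. At an unadjusted edgeR p under 0.05 there were 2 higher and 4 lower (background 6.69% and 4.09%). Foxo1, the factor that maintains Klf2 in resting T cells, fell from 225 and 228 CPM in MIG to 146 and 149.9 CPM in BATF, with an edgeR adjusted p of 0.0229 and a log2 fold change of −0.61 ± 0.08 SE. Its libraries differed 1.01-fold in MIG and 1.03-fold in BATF, less than those of Klf2. Foxo1 no longer passed when either BATF library was removed (0.0604 without replicate 1, 0.0620 without replicate 2) or in limma on FPKM (0.0508 with 0.1 added and 0.0657 with 1 added). The other gene was Il6ra, the IL-6 receptor, which fell from 7.76 and 6.21 CPM to 2.69 and 1.93 CPM (log2 fold change −1.60, edgeR adjusted p = 0.0406). Il6ra did not pass without MIG replicate 1 (−1.43, edgeR adjusted p = 0.0653) or in limma-voom (0.0532) and limma on FPKM (0.0625 and 0.0716).

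Of 20 other KLF and SP family genes, all listed, 14 were tested and 0 passed in edgeR, while at an unadjusted p under 0.05 there was 1 higher and 0 lower (background 6.69% and 4.09%). Their median log2 fold change was −0.09. The 1 was Klf4, a growth-arrest factor of resting CD8 T cells, with 17 and 11 MIG fragments against 31 and 26 BATF fragments (log2 fold change 1.18 ± 0.38 SE, edgeR adjusted p = 0.281).

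Of 19 other S1P receptors and transducers tested, 0 passed in edgeR and the median was 0.15. At an unadjusted p under 0.05 there were 4 higher and 1 lower (background 6.69% and 4.09%). S1pr2, a receptor that restrains migration, stood at 9.97 and 10.97 CPM in MIG and at 13.5 and 13.4 CPM in BATF, with no overlap between the groups (log2 fold change 0.36, edgeR adjusted p = 0.397). Gnai2, the inhibitory G protein through which S1PR1 signals, stood at 1055 and 938 CPM in MIG and at 1073 and 1056 CPM in BATF. Gnai2 had a log2 fold change of 0.10 (edgeR adjusted p = 0.856). Its groups did not overlap either, as in 38.7% of all genes tested.

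Of 21 genes of S1P metabolism and transport, 20 were tested, 1 rose and 0 fell (background 0.884% higher and 0.208% lower), with a median of 0.07. At an unadjusted edgeR p under 0.05 there were 2 higher and 1 lower (background 6.69% and 4.09%). Spns2, the exporter that releases S1P from cells, rose from 8 and 12 MIG fragments to 52 and 78 BATF fragments (log2 fold change 2.81 ± 0.38 SE, edgeR adjusted p = 0.0263). Its level stayed low, at 0.873 and 1.21 FPKM in BATF, and limma on log2(FPKM + 1), a scale that understates changes of low genes, gave an adjusted p of 0.0546. Sgpl1, the lyase that degrades S1P, stood at 37.1 and 40.5 CPM in MIG and at 31.2 and 33.2 CPM in BATF. Sgpl1 had a log2 fold change of −0.27 (edgeR adjusted p = 0.421). Sphk1, an S1P-producing kinase, had 0 to 9 fragments per library and was not tested.

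Among 16 genes that textbooks place under KLF control in T cells, which include S1pr1 and S1pr5, 14 were tested. Of these, 1 rose and 0 fell (background 0.884% higher and 0.208% lower). At an unadjusted edgeR p under 0.05 there were 2 higher and 1 lower (background 6.69% and 4.09%). A negative log2 fold change was found in 11 of the 14, beside 51.5% of all genes tested (medians −0.12 and −0.01). The gene that rose was Cdkn1a, which encodes the cell cycle inhibitor p21, from 55.5 and 61.1 CPM in MIG to 123 and 118 CPM in BATF, with an edgeR adjusted p of 0.00839 and a log2 fold change of 1.05 ± 0.09 SE. It passed in every fit run, with log2 fold changes from 0.98 to 1.11.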

How the data were processed

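Poly(A) RNA of 4 libraries was sequenced, 2 per group, and groups came from the sample titles. Per the submitters' processing notes, the tools were TopHat2 2.1.1, Cufflinks 2.2.2 and Cuffdiff and the build was mm9. The deposited table gives estimated counts, the fragments assigned to a gene before scaling, of which 97.6% were whole numbers, and the authors' FPKM, per the file headers. It numbers replicates 0 and 1, read here as 1 and 2, so these numbers only name libraries. Replicates differed by more than counting noise (chi-square per gene 17.7 in MIG, 9.49 in BATF) and were kept apart.

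Counts were rounded, filtered with filterByExpr, scaled with TMM (trimmed mean of M values; factors 0.988 to 1.01) and compared by edgeR 4.0.16 under R 4.3.3 (glmQLFit, glmQLFTest, no covariate), with Benjamini-Hochberg adjustment over 13008 genes. The biological coefficient of variation was 11.3%. The script was run on simulated counts with the same coefficient of variation for every gene. That run is a check of the code only, not of the calls made here. The standard error is the unshrunk coefficient over the square root of F, and intervals use the test's degrees of freedom. A permutation test of 2 libraries against 2 cannot go below p = 0.333, so none was run. Alternatives were DESeq2 1.42.0, RLE scaling, no filter, limma 3.58.1 (voom, and FPKM plus 1 or 0.1), a replicate block and leaving out each library. All members were named, then each list gene that passed and 12 fixed examples; the 5 genes nearest to Klf2 and to S1pr1 followed a distance rule, and 1 further gene of the naming rule is not reported here. The members and lists were chosen with earlier results of these data known. Promoter sequences are from RefSeq (GRCm38.p6), matched by symbol. The other marker lists were summed in CPM. B cell markers were at 17.8 and 14.6 in MIG and 13.1 and 11.9 in BATF. Myeloid markers were at 26.4 and 26.3 in MIG and 42.6 and 34.7 in BATF, and CD4 markers at 24.5 and 20.8 against 45.8 and 36.8. NK markers were at 0.282 and 0.295 in MIG and 0.421 and 0.458 in BATF, and erythroid markers at 1.00 and 2.01 against 1.21 and 0.865. The part of these lists in the results was not tested.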

Additional observations from a re-analysis of the deposited data

How the results depend on the processing

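The count of genes passing in edgeR, 142, became 364 in DESeq2, 349 without the low-count filter, 44 and 81 in limma on log2(FPKM + 1) and log2(FPKM + 0.1), and 248 to 589 with 1 library left out; RLE scaling (146) and limma-voom (123) moved it little. The count of members passing, 0, stayed 0 under DESeq2, RLE scaling, limma-voom, both FPKM fits and no filter, and was 0 to 3 with 1 library left out, highest without MIG replicate 2.

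The replicate number was also fitted as a block. The deviations of same-numbered libraries correlated at 0.181 across 13008 genes, but with 2 pairs and no label that a number marks a shared mouse or day, the libraries share only a number. With this block, which leaves 1 residual degree of freedom, 1504 genes and 4 members passed, all 4 lower in BATF (background 4.52% lower): Klf2 (log2 fold change −0.43, edgeR adjusted p = 1.03e-06), Klf13 (−0.31, 0.000833), Klf3 (−0.42, 0.00769) and S1pr1 (−0.23, 0.0322). Cd69 (3.86e-14), Ccl5 (1.37e-25) and Tbx21 (0.0435) passed as well. With 1 residual degree of freedom, the fit takes its estimate of spread largely from all genes together. The size of these p-values therefore does not measure the spread of each gene between libraries.

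With 1 library left out, log2 fold changes of mixed sign ran from −0.025 (without MIG replicate 1) to 0.21 (without MIG replicate 2) for Klf10, from −0.36 (without MIG replicate 2) to 0.18 (without MIG replicate 1) for S1pr4, with 0.03 without BATF replicate 2, from −1.68 (without BATF replicate 1) to 0.19 (without BATF replicate 2) for S1pr5, and from −0.032 (without BATF replicate 1) to 0.26 (without BATF replicate 2) for Itgb7; the cause was not tested. Depth limits S1pr5, Klf4, Spns2 and Sphk1, which had under 100 fragments in every library.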
